A study of Xenopus laevis with 6 samples.

Results

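The maternal RNA regulators described here are 7 genes of the frog Xenopus laevis, measured through 8 probe sets on an array that carried 11303 named genes and 32539 probe sets other than controls. They are cpeb1.L, zfp36l2.1.S, pabpn1l.S, btg4.L, btg3.S, tbpl2.L and tbp.L, and every probe set with 1 of these as its single gene symbol was taken. The endings .L and .S name the long and short subgenomes of this tetraploid species. The genes were chosen on earlier results of these data, in the main differences between ERK3 morpholino arrays and control arrays, so those differences are given below as descriptions with no test. Which comparison put zfp36l2.1.S among them is not recorded. pabpn1l.S had 2 probe sets and each of the others had 1. Counts and ranges over the 7 genes use the brighter pabpn1l.S probe set unless the second is named.

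The samples were animal caps, the ectoderm cut from the top of the blastula. Morpholinos, antisense oligonucleotides that block the use of a chosen transcript, had been injected at the 4-cell stage into the animal region, caps were cut at stage 9, and RNA was taken at stage 15, the neurula stage. Activin/RA caps were cultured with activin plus retinoic acid and received ERK3 MO3 (80 ng), ERK3 MO1/2 (MO1 and MO2, 40 ng each) or control MO (80 ng). Untreated caps were cultured alone and received the same 3 injections. ERK3 is an atypical MAP kinase, and the series title names its part in epithelial architecture. Each of the 6 groups was 1 array of pooled tissue from 1 experiment, so no p-value measures the spread between replicates. For the comparisons of cultures and of reagents, the spread is how unevenly the morpholinos differed between cultures. For the ERK3 effect, it is the difference between MO3 and MO1/2. Either may be partly technical. Injection reaches only the cells that inherit the morpholino, and the ERK3 transcript was not analysed here.

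The egg stores mRNA made before fertilisation, and its use depends on the length of its poly(A) tail. CPEB1 binds the cytoplasmic polyadenylation element and first masks and then activates stored mRNA in Xenopus oocytes, whereas BTG proteins and CCCH zinc finger proteins of the ZFP36 family bring the CCR4-NOT deadenylase to mRNA and so shorten the tail. Most stored mRNA is cleared once the embryo transcribes its own genome, before the stage at which these caps were harvested. The array signals do not tell stored RNA from newly made RNA. TBPL2 takes the place of the TATA-binding protein TBP in oocyte transcription. Both proteins act in transcription, so the name of the group fits tbpl2.L and tbp.L only loosely.

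Values are log2 of the deposited RMA signal, so a difference of 1 is a 2-fold change. The array medians lay between 5.08 and 5.14 and the lower quartiles between 2.79 and 2.90. Cell type markers set the background to all that follows. The 13 mesoderm and endoderm marker genes all rose with activin/RA in limma at an adjusted p under 0.05. Of 15 epidermal marker genes, 5 rose and 0 fell with activin/RA, where their median change was 0.95, and 11 fell with the ERK3 morpholinos in untreated caps. Their summed linear signal was 5695 with MO3 and 4489 with MO1/2, against 12096 with control MO in untreated caps, and 6656 and 6131 against 11248 in activin/RA caps. The fitted activin/RA rise averages over the morpholinos. With control MO alone the summed signal was lower with activin/RA (11248 against 12096), while the markers' median log2 signal was higher (9.23 against 7.87). In tissue of this kind, fewer cells of a type and less RNA per cell cannot be told apart.

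In untreated caps the 7 regulators were 0.78 to 3.08 higher on the log2 scale in the mean of the 2 ERK3 arrays than on the control array, with a median of 2.15, against a median of 0.04 over all genes. On 8 of 8 probe sets the pair of untreated ERK3 arrays held the 2 highest of 6 values, an order found in 25.7% of all genes. In activin/RA caps the same mean difference ran from -0.03 to 1.44 with a median of 0.94. It was smaller than in untreated caps for all 7 genes, by 0.26 to 2.41. Both sets of values are descriptions, since the genes were chosen on these contrasts.

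**Figure D1:**
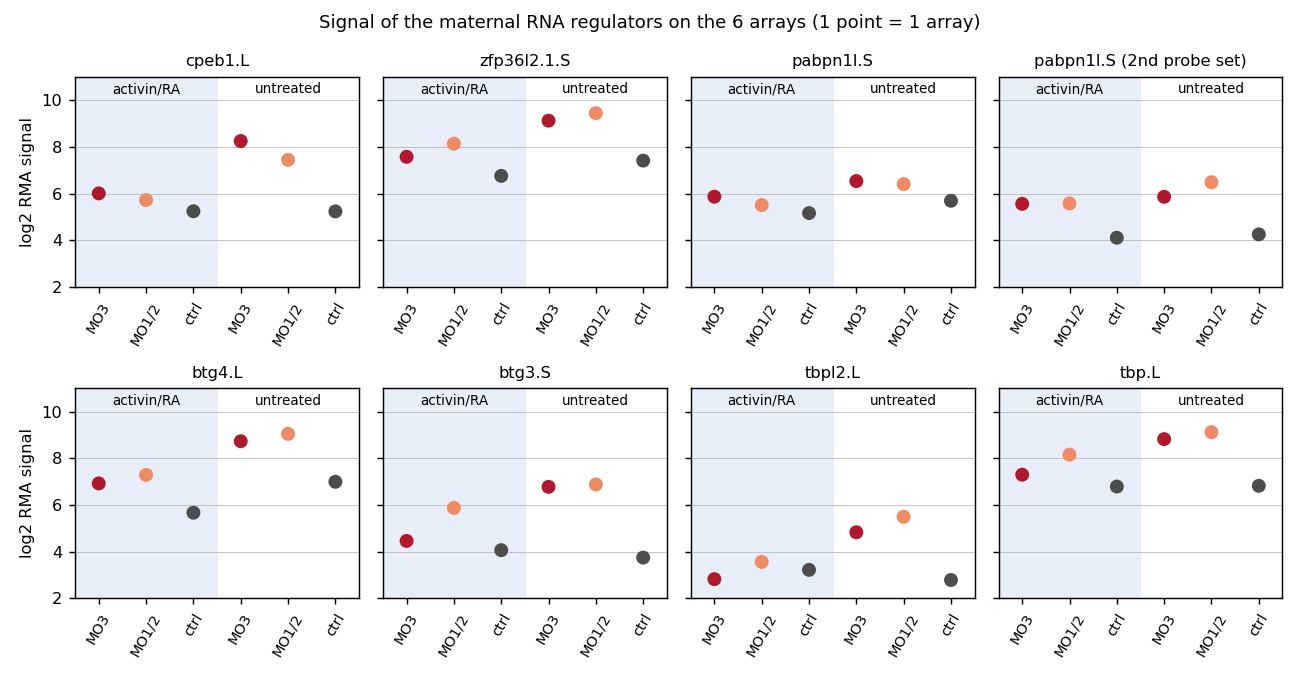
Log2 RMA signal (vertical axis) of each probe set of the 7 genes on the 6 arrays, with activin/RA arrays shaded on the left and untreated arrays on the right; 1 point is 1 array, MO3 in red, MO1/2 in orange and control MO in grey. On 8 of 8 probe sets both untreated ERK3 arrays lie above the other arrays.

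cpeb1.L, which encodes the cytoplasmic polyadenylation element binding protein, had log2 signals of 6.01 with MO3, 5.73 with MO1/2 and 5.25 with control MO in activin/RA caps. In untreated caps it had 8.26 with MO3, 7.45 with MO1/2 and 5.24 with control MO. The 2 control arrays were thus nearly level and all 4 ERK3 arrays stood above both of them. The ERK3 minus control difference was 0.77 for MO3 and 0.48 for MO1/2 in activin/RA caps, and 3.02 for MO3 and 2.21 for MO1/2 in untreated caps.

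zfp36l2.1.S encodes a CCCH zinc finger protein of the family that binds AU-rich elements. Its log2 signals were 7.58 with MO3, 8.14 with MO1/2 and 6.77 with control MO in activin/RA caps, and 9.13, 9.45 and 7.42 in untreated caps in the same order. Every ERK3 array again exceeded both control arrays. The difference from control was 0.82 with MO3 and 1.38 with MO1/2 in activin/RA caps, and 1.71 and 2.03 in untreated caps.

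pabpn1l.S encodes a poly(A)-binding protein found in Xenopus oocytes and early embryos. Its brighter probe set, whose probes are shared between transcripts by its name, read 5.87 with MO3, 5.51 with MO1/2 and 5.17 with control MO in activin/RA caps, and 6.54, 6.41 and 5.698 in untreated caps. Here the activin/RA MO1/2 array lay below the untreated control array, so the ERK3 and control arrays overlapped. The second probe set read 5.57, 5.59 and 4.11 in activin/RA caps, and 5.87, 6.50 and 4.26 in untreated caps, with no overlap. The mean ERK3 difference in untreated caps was 0.78 on the first probe set and 1.93 on the second, and in activin/RA caps 0.52 and 1.46, so the size of this gene's difference depended on the probes used. By name, the brighter probe set shares its source sequence with both probe sets of the other subgenome copy, pabpn1l.L. Its signal may therefore include that copy.

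btg4.L belongs to the BTG/TOB family, whose members bind the CAF1 deadenylase; in mouse, BTG4 is needed to clear maternal mRNA. Its log2 signals were 6.93 with MO3, 7.29 with MO1/2 and 5.67 with control MO in activin/RA caps, and 8.74, 9.05 and 6.999 in untreated caps. The differences from control were 1.26 for MO3 and 1.62 for MO1/2 in activin/RA caps, and 1.74 and 2.06 in untreated caps. It was at least 2-fold above control with both reagents in both cultures, and it differed more between the 2 control arrays than any of the other 6 genes.

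btg3.S, of the same family, had log2 signals of 4.46 with MO3, 5.88 with MO1/2 and 4.07 with control MO in activin/RA caps, and 6.78, 6.88 and 3.75 in untreated caps. In untreated caps its differences from control were 3.03 for MO3 and 3.13 for MO1/2, and their mean was the largest of the 7 genes. In activin/RA caps the reagents stood apart, with a difference of 0.39 for MO3 and 1.81 for MO1/2.

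tbpl2.L, the oocyte paralogue of TBP, was the dimmest of the 7. It read 2.82 with MO3, 3.56 with MO1/2 and 3.22 with control MO in activin/RA caps, and 4.83, 5.498 and 2.79 in untreated caps. The untreated control and the activin/RA MO3 arrays read no more than the highest of the arrays' lower quartiles, a level at which RMA signals carry no call of detection and compress differences. The ERK3 difference was -0.40 for MO3 and 0.34 for MO1/2 in activin/RA caps, and 2.05 and 2.71 in untreated caps, so the reagents shared a sign in untreated caps alone. The mean difference was -0.03 in activin/RA caps, and 0.051 after a second quantile normalisation. In untreated caps it was 2.38, and 1.19 with 16 added to each signal before the log.

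tbp.L encodes TBP, the general transcription factor that binds the TATA box. It read 7.30 with MO3, 8.16 with MO1/2 and 6.79 with control MO in activin/RA caps, and 8.83, 9.13 and 6.83 in untreated caps. All 4 ERK3 arrays exceeded both control arrays, which differed by 0.03. The differences from control were 0.51 and 1.37 in activin/RA caps and 2.00 and 2.30 in untreated caps, for MO3 and MO1/2 in that order.

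At least a 2-fold difference above control with both reagents was reached by 6 of the 7 genes in untreated caps, where 2.59% of all genes reached it, and by 1 of 7, btg4.L, in activin/RA caps, where 0.203% did. The second pabpn1l.S probe set also reached it, at 2.74-fold with MO3 and 2.77-fold with MO1/2 in activin/RA caps and 3.06-fold and 4.72-fold in untreated caps, so that counting pabpn1l.S by this probe set gives 7 of 7 genes in untreated caps and 2 of 7 in activin/RA caps. Nothing is read from these shares, because they use the contrasts on which the genes were chosen. MO3 and MO1/2 were each set against the same control array, so their differences share its error.

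**Figure D2:**
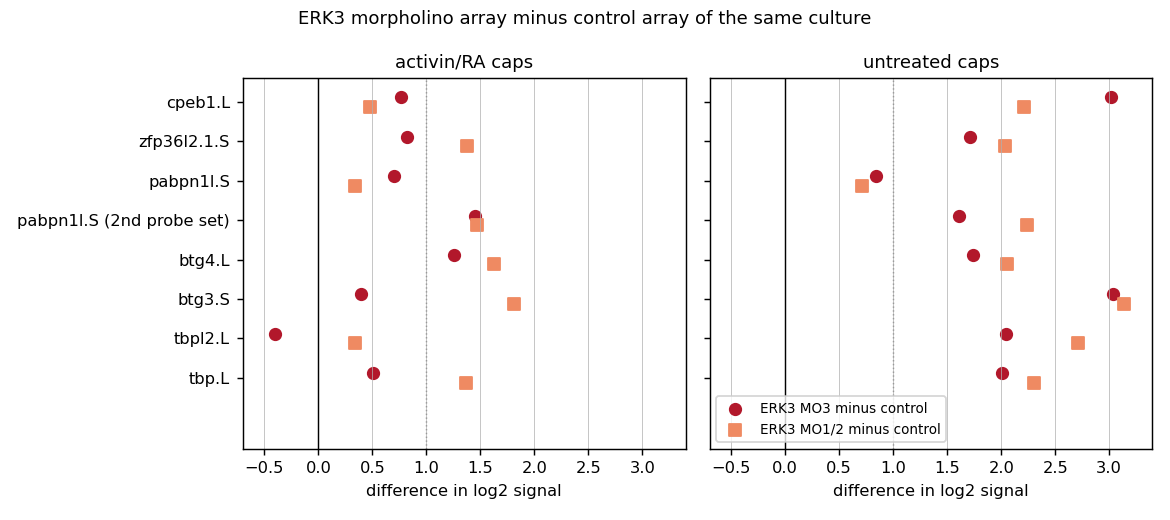
Difference in log2 signal (horizontal axis) between each ERK3 morpholino array and the control array of its culture, for activin/RA caps on the left and untreated caps on the right; circles are MO3, squares MO1/2, and the dotted line marks a 2-fold difference. All points lie right of 0 in untreated caps, and tbpl2.L with MO3 is the 1 point left of 0 in activin/RA caps.

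The comparison of cultures asked how the regulators differed between activin/RA and untreated caps across the 3 morpholinos. A larger ERK3 rise in untreated than in activin/RA caps puts the fitted difference below that of the control arrays by construction. For genes chosen on ERK3 differences this comparison is therefore not independent of the choice, and nothing is read from its count. In the limma fit with the morpholino as a block, 4 of the 7 genes fell and 0 rose with activin/RA at an adjusted p under 0.05, where 14.6% of all genes fell and 9.71% rose. btg4.L fell by 1.63 on the log2 scale (SE 0.14, adjusted p = 0.000594), zfp36l2.1.S fell by 1.17 (SE 0.18, adjusted p = 0.00548), pabpn1l.S fell by 0.70 (SE 0.15, adjusted p = 0.0192) and cpeb1.L fell by 1.32 (SE 0.38, adjusted p = 0.0487). The call of cpeb1.L was lost without the intensity trend (adjusted p = 0.0701), after a second quantile normalisation (adjusted p = 0.0509) and with 16 added before the log (adjusted p = 0.0624), each of which left 3 genes. The fitted differences of the others did not pass. They were -1.17 for tbpl2.L (SE 0.45, adjusted p = 0.109), -1.002 for btg3.S (SE 0.43, adjusted p = 0.143) and -0.84 for tbp.L (SE 0.25, adjusted p = 0.0568). The second pabpn1l.S probe set, which by name does not share its source sequence with pabpn1l.L, gave -0.45 (SE 0.19, adjusted p = 0.142).

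These fitted means joined pairs of arrays that did not behave alike. Activin/RA minus untreated, within the MO3 pair, lay between -2.32 and -0.67 for the 7 genes, and within the MO1/2 pair between -1.93 and -0.90. Within the control pair it lay between -1.33 and 0.44 with a median of -0.03, and 3 genes were above 0 and 4 below. btg4.L (-1.33 in the control pair), zfp36l2.1.S (-0.66), pabpn1l.S (-0.53) and tbp.L (-0.03) were lower with activin/RA in caps of all 3 morpholinos. The control pair of tbp.L was nearly level. For cpeb1.L the control pair differed by 0.0054, so its fitted fall rested on the ERK3 pairs.

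The count of falls turned on single arrays. It was 2 without the MO3 array of either culture, 1 without the MO1/2 array of either culture, and 7 without the control array of either culture, since leaving out 1 array removes its pair from the comparison. It was 0 with no morpholino block.

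**Figure D3:**
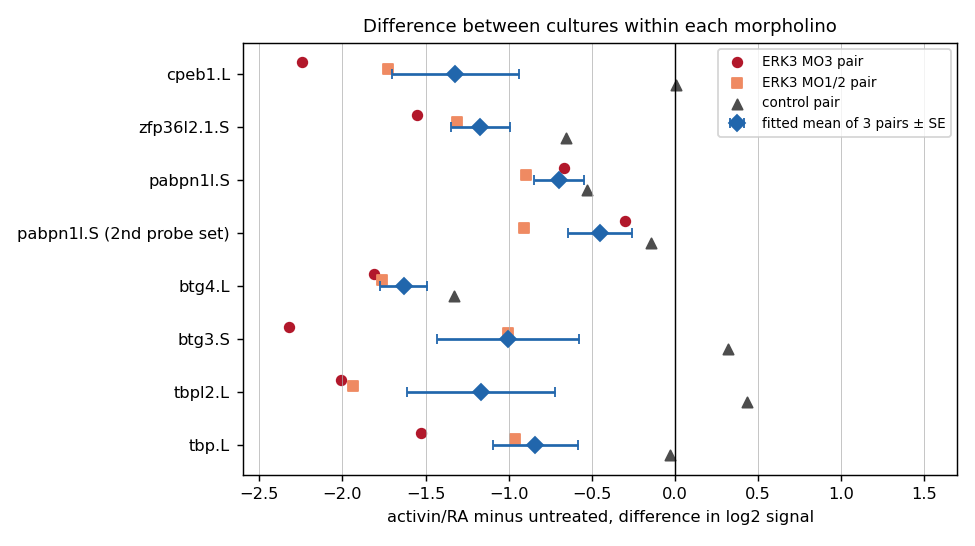
Activin/RA minus untreated difference in log2 signal (horizontal axis) for each probe set, within the MO3 pair (circles), the MO1/2 pair (squares) and the control pair (triangles), with the fitted mean of the 3 pairs and its SE (blue diamonds). The ERK3 pairs of all 7 genes lie left of 0, and the control pairs lie on both sides of it.

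Between the reagents, MO3 minus MO1/2 passed the limma test for 0 of the 7 genes at an adjusted p under 0.05, and for 0 of them at an unadjusted p under 0.05; of all genes 0% passed in either direction after adjustment, and 7.26% had an unadjusted p under 0.05. The fitted differences ran from -0.76 for btg3.S (95% interval -1.98 to 0.47) to 0.54 for cpeb1.L (95% interval -0.55 to 1.64), and both intervals reach past a 2-fold difference. For btg3.S the pair of ERK3 arrays differed by -1.42 in activin/RA caps. The ERK3 minus control difference of the members varied between cultures, and this widens the spread that the test uses. That 0 passed is therefore not read as likeness of the reagents. cpeb1.L and the brighter pabpn1l.S probe set were higher with MO3 in both cultures, while the second pabpn1l.S probe set (by 0.02 in activin/RA caps and 0.63 in untreated caps) and the other 5 genes were higher with MO1/2 in both.

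4 of the 7 genes had a second subgenome copy on the array. Copies can share probes, so they are not independent of the choice of the members. cpeb1.S read 4.89 with MO3, 4.93 with MO1/2 and 4.48 with control MO in activin/RA caps, and 6.91, 6.28 and 4.59 in untreated caps. It rose by 2.01 with the ERK3 morpholinos in untreated caps (SE 0.29, adjusted p = 0.0184). btg4.S read 7.69, 8.08 and 7.51 in activin/RA caps, and 8.89, 9.36 and 7.98 in untreated caps. It rose by 1.14 in untreated caps (SE 0.25, adjusted p = 0.0416), and tbp.S rose by 1.11 (SE 0.18, adjusted p = 0.0232). The copy pabpn1l.L differed by 0.38 (SE 0.23, adjusted p = 0.384) on its brighter probe set and by 0.66 (SE 0.23, adjusted p = 0.140) on the other, and neither passed. By name, these probe sets share their source sequence with the brighter pabpn1l.S probe set, so they do not separate the copies.

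In activin/RA caps the ERK3 differences of these copies were 0.36 to 0.45 on the probe set with the highest mean of each gene, and none passed (adjusted p = 0.448 to 0.648). With activin/RA, btg4.S fell by 0.99 (SE 0.17, adjusted p = 0.00923) and cpeb1.S fell by 1.16 (SE 0.33, adjusted p = 0.0462). The differences of tbp.S (-0.56, adjusted p = 0.0577) and of the brighter pabpn1l.L probe set (-0.43, adjusted p = 0.0821) did not pass, whereas the second pabpn1l.L probe set fell by 0.62 (SE 0.16, adjusted p = 0.0321). For cpeb1.S the control pair differed by -0.11, against -2.02 in the MO3 pair and -1.36 in the MO1/2 pair. Its fall thus rested on the ERK3 pairs, as for cpeb1.L. For btg4.S the pairs differed by -0.47, -1.20 and -1.29 in the same order. As for the members, nothing is read from these falls.

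**Figure D4:**
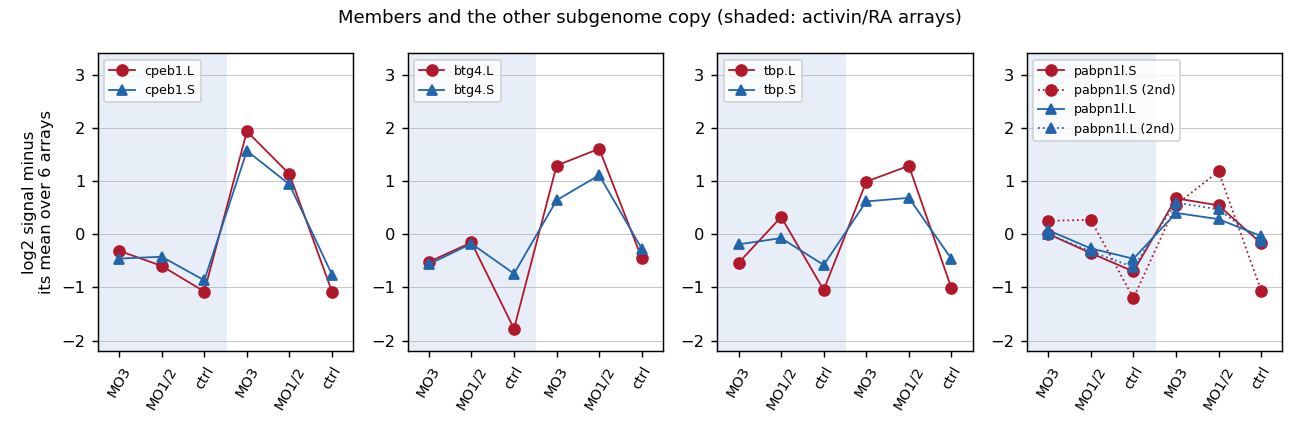
Log2 signal minus its own mean over the 6 arrays (vertical axis) for 4 members (red circles) and their other subgenome copies (blue triangles), with activin/RA arrays shaded on the left; dotted lines are second probe sets. All 4 copies, pabpn1l.L on both its probe sets, were highest on the pair of untreated ERK3 arrays, as the members were.

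The other genes of the same machinery were taken as 8 lists holding 162 measured genes besides the members, written with earlier results of these data known. In untreated caps 19 of the 162 rose and 6 fell with the ERK3 morpholinos in limma at an adjusted p under 0.05, where 4.08% of all genes rose and 3.8% fell. These p-values rest on the spread between 2 reagents of 1 experiment, with 1 control array in the culture. Of the 19 that rose, 11 came from the list of oocyte and egg stored transcripts, and cpeb1.S, btg4.S and tbp.S are copies of members. The 19 are therefore not independent of the earlier results, and nothing is read from their share. Without the untreated MO1/2 array the counts were 5 and 0. In activin/RA caps limma called 0 of the 162, with 20 at an unadjusted p under 0.05 (12.3%, against 11.7% of all genes), where 0.0265% of all genes rose and 0.124% fell after adjustment. The difference between cultures in the ERK3 effect passed for 0 of the 162 in limma, and for 0 of all 11303 genes. Of the 162, 23 had an unadjusted p under 0.05 in that fit (14.2%, against 9.45% of all genes).

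In the BTG and TOB family 1 of 6 other genes rose, which was btg4.S, and 1 fell. The gene that fell was btg1.L, which read 8.89 with MO3 and 8.91 with MO1/2, against 9.74 with control MO in untreated caps (log2 change -0.85, SE 0.17, adjusted p = 0.0332). Of 15 deadenylase genes, 1 rose and 0 fell at the adjusted threshold. It was parn.L, the poly(A)-specific ribonuclease, at 7.82 and 8.14 with MO3 and MO1/2 against 7.02 with control MO (log2 change 0.96, SE 0.21, adjusted p = 0.0398). The list's median ERK3 difference was -0.000688, against 0.04 over all genes. It was written to cover subunits of CCR4-NOT and PAN2-PAN3. Of CCR4-NOT, cnot1, cnot6, cnot8 and cnot11 were not among its measured genes, so the median does not cover the whole complex.

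Among 17 decapping and 5′ decay genes, 2 rose and 1 fell. patl2.L, an RNA-binding protein of the oocyte, read 8.86 with MO3 and 8.12 with MO1/2, against 6.92 with control MO in untreated caps, and rose by 1.57 (SE 0.32, adjusted p = 0.0367). lsm2.L rose by 1.02 on the brightest of its 3 probe sets, which ranged from 0.26 to 1.02, and lsm4.S fell by 1.04, and both encode subunits of LSM rings, which bind RNA ends. Among 26 genes of cytoplasmic polyadenylation and masking, 2 rose and 1 fell. They were cpeb1.S, tent2.L, the cytoplasmic poly(A) polymerase that works with CPEB1, which rose by 0.74 (SE 0.16, adjusted p = 0.0393), and msi1.S, an RNA-binding protein of neural precursors, which fell by 1.34 (SE 0.27, adjusted p = 0.0355).

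Of 11 poly(A)-binding protein genes, 0 rose in limma and 1 fell, pabpc4.L (log2 change -1.30, SE 0.23, adjusted p = 0.0269). Of 16 genes for AU-rich element binding proteins, zfp36l2.2.L rose and zfp36.L fell. zfp36l2.2.L read 9.32 with MO3 and 9.24 with MO1/2 against 7.33 with control MO in untreated caps, a rise of 1.95 (SE 0.19, adjusted p = 0.0138). zfp36.L read 5.97 and 5.88 against 7.40, and fell by 1.47 (SE 0.26, adjusted p = 0.0267). Members of one protein family thus moved in opposite directions. Of 25 genes of the TBP family and its partners TFIID, TFIIA and TFIIB, 1 rose, tbp.S, and 0 fell.

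The list of 46 oocyte and egg stored transcripts had 11 that rose and 1 that fell, with a median difference of 0.35 against 0.04 over all genes. The 11 count some genes more than once. They hold vegt.L with vegt.S, and ccna1.L with ccna1.S and a ccna1 entry that has no subgenome ending. That entry read only 2.09 to 3.08, near the arrays' lower quartiles. The largest rises were in ccna1.S (1.97, SE 0.31, adjusted p = 0.0219) and ccna1.L (1.84, SE 0.23, adjusted p = 0.0155), the copies of the embryonic cyclin A1, in pou5f3.3.L (1.67, SE 0.24, adjusted p = 0.0190), a maternal POU factor, and in vegt.S (1.26, SE 0.25, adjusted p = 0.0338), a T-box factor both stored in the egg and transcribed in the embryo. The 1 that fell was mastl.L (-0.64, adjusted p = 0.0496), the Greatwall kinase, named after its value was seen. This list was written knowing that such transcripts had differed in these samples, and its count is not independent evidence of a direction.

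**Figure D5:**
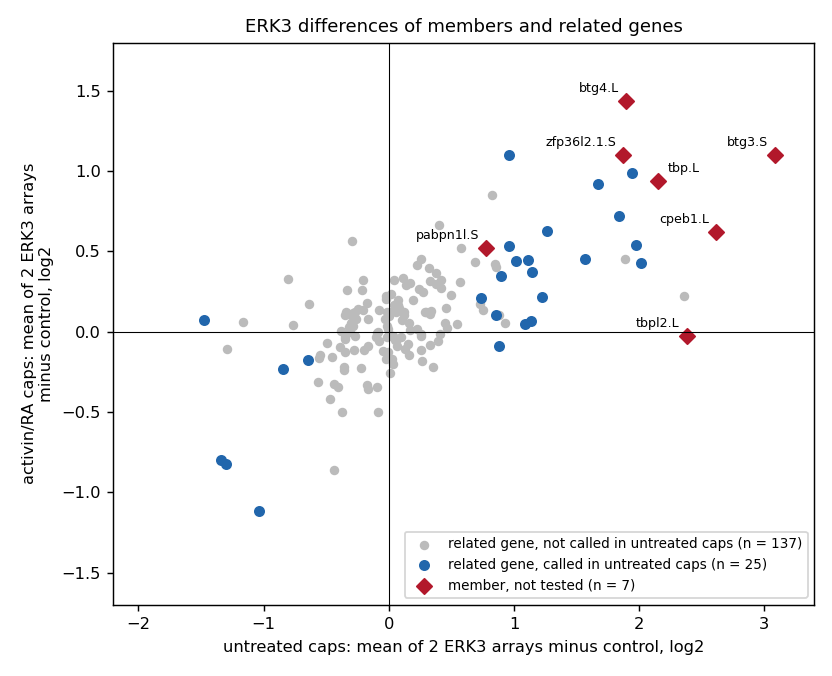
Mean ERK3 minus control difference in log2 signal in untreated caps (horizontal axis) and in activin/RA caps (vertical axis) for the 7 members (red diamonds), the 25 related genes called in untreated caps (blue) and the 137 not called (grey). The members lie at 0.78 to 3.08 on the horizontal axis and at -0.03 to 1.44 on the vertical axis.

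With activin/RA, 15 of the 162 related genes rose and 27 fell (9.26% and 16.7%), shares close to the 9.71% and 14.6% of all genes. In the oocyte and egg list 6 rose and 9 fell (13.0% and 19.6%). fbxo43.L, which encodes the meiotic inhibitor Emi2, read 4.14 with MO3, 5.37 with MO1/2 and 4.54 with control MO in activin/RA caps, and 6.62, 7.86 and 4.88 in untreated caps, and fell by 1.77 (SE 0.40, adjusted p = 0.0224). Its control pair differed by -0.35, against -2.48 in the MO3 pair and -2.48 in the MO1/2 pair, so this fall rested mainly on the ERK3 pairs. vegt.S read 10.1, 10.7 and 9.78 in activin/RA caps against 7.48, 7.30 and 6.12 in untreated caps, a rise of 3.23 (SE 0.19, adjusted p = 0.000119). Of the BTG and TOB family, btg1.L rose by 0.76 (SE 0.15, adjusted p = 0.0135) where btg4.S fell, so the copies of btg4 and btg1.L differed in sign in both comparisons. The other copy, btg1.S, had the signs of btg4.S but did not pass in limma. It differed by 0.42 with the ERK3 morpholinos in untreated caps (adjusted p = 0.144) and by -0.08 with activin/RA (adjusted p = 0.554).

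Germ cells keep some maternal RNA through these stages, and markers of germ plasm and germ cells were set beside the members. The caps were ectoderm cut from the top of the blastula. Whether they held any germ cells was not tested. Of 8 such genes, 1 rose with the ERK3 morpholinos in untreated caps, velo1.L (0.86, SE 0.19, adjusted p = 0.0433), named after its value was seen, and 0 fell. The list's median difference there was -0.06. dazl.L, which was not called, differed by -0.91 with MO3 and -1.67 with MO1/2. The summed linear signal of the 8 was 1286 with MO3 and 1116 with MO1/2, against 1345 with control MO in untreated caps. In activin/RA caps it was 1360 and 1172 against 1433. A large part of each sum was ddx4.L alone, at 637, 627 and 810 in untreated caps and 764, 710 and 857 in activin/RA caps, in the same order. By the list's median log2 signal the values were 6.62 and 5.79 against 6.73 in untreated caps, and 6.74 and 5.93 against 6.71 in activin/RA caps, so the order of MO3 and control in activin/RA caps depended on the summary. The epidermal markers, given above, had a lower summed signal on each ERK3 array than on the control array of its culture. Their part in the differences of the regulators was not tested.

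Over the 6 arrays the 7 members correlated with each other at r = 0.756 to 0.993 (median 0.898 over 21 pairs), which describes genes chosen for a shared difference on the same arrays. Genes of like profile were sought by the root mean square difference of centred log2 signals over 6 arrays. Probe sets with no symbol, or with a provisional one starting with LOC, MGC, XELAEV or XB, were left out of this search. Among the other genes, the 6 nearest to the mean profile of the members were zfp36l2.2.L (0.109), hmgcs1.S (0.125), mylip.S (0.163), stx11.S (0.176), map1lc3c.L (0.186) and pou5f3.3.L (0.191). For single members, the nearest gene to cpeb1.L was its own copy cpeb1.S (0.249), to zfp36l2.1.S it was hmgcs1.S (0.0742), to pabpn1l.S chn1.L (0.0583), to btg4.L abhd18.L (0.200), to tbpl2.L stx11.S (0.219) and to tbp.L ets1.S (0.169). btg3.S had the least close neighbour, mylip.S (0.352).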

How the data were processed

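Per the labels' protocols, each of 6 arrays received target made from 250 ng of total RNA. They were Affymetrix GeneChip Xenopus laevis Genome 2.0 arrays, and the authors normalised the scans with the robust multi-array average (RMA) in Expression Console. The deposited intensity values are linear, 2.13 to 18347. The design had taken them for log2 values, so log2 was computed first, with no constant. Of 32635 rows, 96 controls were left out and 32539 were tested. A single symbol was annotated for 15495 probe sets and more than 1 for 279, while 16765 had none. All 7 members matched RefSeq by gene ID.

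limma 3.58.1 in R 4.3.3 (lmFit, eBayes with trend) was run in 2 fits. The activin/RA effect and MO3 minus MO1/2 came from culture plus a morpholino block, and the ERK3 effect from culture by knockdown with MO3 and MO1/2 as 2 samples and 1 control array, whose spread was taken to equal theirs. Each fit had 2 residual degrees of freedom. The Benjamini-Hochberg adjustment covered all 32539 probe sets, with a threshold of 0.05. Genes were counted by their probe set of highest mean signal. The scripts were tested on simulated data. The number of arrays limits the precision.

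The members and the 8 lists were chosen with earlier results of these data known. Named besides the members were the other subgenome copies, up to 4 genes per list with the largest passing change, and the genes with the nearest profile. Alternatives were no trend, a second quantile normalisation, a filter on level, log2(value + 16) and no morpholino block. Each array was also left out in turn where the comparison could still be formed. Figures were drawn with matplotlib in Python.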

Additional observations from a re-analysis of the deposited data

How the results depend on the processing

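No paired analysis by replicate number was possible because each group was 1 array. The count of members that fell with activin/RA, 4 in the reported fit, was 3 with no trend, a second quantile normalisation or log2(value + 16), 5 with the filter on level, 0 with no morpholino block and 1 to 7 when single arrays were left out. The count lower with MO3 than with MO1/2, 0 in the reported fit, was 0 to 2, with 2 when either control array was left out. Among related genes, the untreated ERK3 counts of 19 higher and 6 lower were 5 to 19 and 0 to 8 when single arrays were left out. The activin/RA counts of 15 higher and 27 lower were 9 and 6 with no morpholino block, and 6 to 32 and 4 to 47 when single arrays were left out. The control array of a culture was never left out of the ERK3 counts of that culture, because no difference from control remains without it. Leaving out 1 array also removes its pair from the comparison of cultures, and the counts there moved both up and down. The cause of these shifts was not tested further. No called value of the members changed sign under the alternatives run. The related genes, which include the copies, were recomputed as counts only. tbpl2.L was too dim for the filter on level and has no value there. Fitted activin/RA differences stayed below 0 for all 7 members, each on its brighter probe set, in these alternatives, from -1.99 to -0.34. Every alternative kept at least 1 ERK3 pair, and both ERK3 pairs lay below 0 for all 7 genes. The control pair alone lay above 0 for 3 of them. These signs are therefore not independent of the choice of the genes, and nothing is read from them.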
